A study of Mus musculus with 54 samples.

Results

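The miR-17-92 cluster is a polycistron of 6 microRNA hairpins on mouse chromosome 14. Its 7 listed mature products are mmu-miR-17-5p, mmu-miR-17-3p, mmu-miR-18a-5p, mmu-miR-19a-3p, mmu-miR-20a-5p, mmu-miR-19b-3p and mmu-miR-92a-3p (the mouse prefix is left out below), chosen by name as the members of the cluster in the deposited tables. They are 7 of the 1966 miRNAs listed for liver and epididymal white adipose tissue (eWAT), and 2 of them, miR-19a-3p and miR-19b-3p, are among the 79 miRNAs listed for sperm. Small RNA was sequenced from these 3 tissues of wild-type C57BL/6 male mice of the F0 generation, all on chow until 6 weeks of age and sampled at 24 weeks. The HFLF mice received 9 weeks of high-fat and then 9 weeks of low-fat diet. HF mice received 18 weeks of high-fat diet (the label's treatment text prints "HLD" for it), and LF mice 18 weeks of low-fat diet. Each diet has 6 libraries per tissue, 54 in all. Nothing in the labels says how the numbered libraries relate to animals or cages, so p-values measure the spread between libraries.

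The transcript of the cluster is processed into hairpins, and each hairpin can release a product from either arm. A mature miRNA guides silencing of mRNAs mainly through its seed, bases 2 to 8 from the 5′ end. The cluster is best known as a driver of proliferation, transcribed under MYC and E2F factors and active in lymphocytes and many tumours. Its seeds fall into the miR-17, miR-18, miR-19 and miR-92 families. MiR-17-5p and miR-20a-5p restrain targets that include the cell-cycle inhibitor p21, the miR-19 family is known for its part in lymphoma, and miR-92a-3p is known for restraining blood vessel growth. In adipose tissue the cluster is linked to the clonal expansion of preadipocytes.

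The mature sequences are printed to show which members share a seed. They are from RefSeq on GRCm38.p6, written 5′ to 3′ with the seed in capitals. All 7 members matched an entry.
miR-17-5p: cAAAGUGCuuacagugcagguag
miR-20a-5p: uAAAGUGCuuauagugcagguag
miR-18a-5p: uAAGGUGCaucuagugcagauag
miR-19a-3p: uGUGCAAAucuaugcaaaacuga
miR-19b-3p: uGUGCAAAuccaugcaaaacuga
miR-92a-3p: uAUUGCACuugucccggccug
miR-17-3p: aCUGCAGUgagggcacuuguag
MiR-17-5p and miR-20a-5p have 1 seed and differ at 2 bases, C1U and C12U, written with the base of miR-17-5p first and counted from the 5′ end. MiR-19a-3p and miR-19b-3p have 1 seed and differ at U11C, written with the base of miR-19a-3p first. The miR-18a-5p seed differs from that of miR-20a-5p at G4A, with the base of miR-18a-5p first. MiR-17-3p shares its seed with no other member.

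The 6 hairpins span 836 bases of the plus strand, 14:115043671-115044506 on GRCm38, in the order Mir17, Mir18, Mir19a, Mir20a, Mir19b-1 and Mir92-1. All 6 lie within exon 2 (115043271 to 115046727) of the long non-coding RNA gene Mir17hg (115042879 to 115046727) in the GENCODE annotation. The mir-17 hairpin, at 115043671 to 115043754, is shown because both of its arms are members; the arms, miR-17-5p and then miR-17-3p, are in capitals.
mir-17: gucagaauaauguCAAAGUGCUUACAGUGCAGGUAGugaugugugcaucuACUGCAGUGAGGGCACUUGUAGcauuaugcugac

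Of the members, 2 have a second source. The mature miR-19b-3p and miR-92a-3p are also encoded, letter for letter, by Mir19b-2 and Mir92-2 on the minus strand of chromosome X (52741991 to 52742013 and 52741854 to 52741874), so their reads cannot be told apart by locus, and how such reads were counted is not given in the sources used here. Other products of the X-linked cluster had few counts. In eWAT miR-20b-5p had 10 to 69 counts per library, miR-363-3p 15 to 52 and miR-363-5p 2 to 34, and these 3 passed the filter on low counts there. In liver they had 0 to 12, 0 to 12 and 0 to 9 counts and did not pass. MiR-106a-5p had 0 to 20 counts per eWAT library and 0 to 3 per liver library, miR-18b-5p had 0 to 3 and 0 to 2, and the other arm of Mir19b-2, miR-19b-2-5p, was at 0 in all 36 libraries.

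Libraries held 7.48e+06 to 1.30e+07 counts in eWAT and 7.02e+06 to 1.44e+07 in liver. MiR-122-5p, the main hepatocyte miRNA, took 0.00798% to 0.798% of eWAT counts and 37.9% to 51.4% of liver counts, and miR-143-3p, abundant in fat and stroma, took 4.36% to 24.5% in eWAT and 0.720% to 1.51% in liver. The eWAT libraries LF 4, LF 5 and HFLF 4 stood apart through miRNAs of epithelium. Calls of members with TMM scaling and calls of ratios that use these libraries are also given without them.

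MiR-92a-3p made up most of the cluster's reads. It averaged 85.5% ± 2.48 of the summed counts of the 7 members in eWAT and 87.7% ± 1.07 in liver (SD, n = 18 each), where it ranked 42nd and 24th among all miRNAs by mean level. MiR-19b-3p followed at 5.66% ± 1.04 in eWAT and 5.81% ± 0.581 in liver. MiR-20a-5p held 5.48% ± 1.13 in eWAT and 4.54% ± 0.516 in liver. These 2 did not differ beyond their spread in eWAT.

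The minor members were miR-17-5p, miR-17-3p, miR-18a-5p and miR-19a-3p. MiR-17-5p held 2.12% ± 0.412 in eWAT and 1.25% ± 0.185 in liver, and its hairpin partner miR-17-3p held 0.543% ± 0.0790 in eWAT and 0.252% ± 0.0479 in liver. In eWAT miR-18a-5p held 0.386% ± 0.121 and miR-19a-3p 0.281% ± 0.0988, within each other's spread. In liver miR-19a-3p, at 0.296% ± 0.0626, and miR-17-3p overlapped, while miR-18a-5p was last at 0.140% ± 0.0464. Counts per library were lowest for miR-18a-5p in liver (23 to 91) and for miR-19a-3p in eWAT (39 to 175). Read shares compare miRNAs only roughly, since ligation of adapters favours some ends over others.

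**Figure D1:**
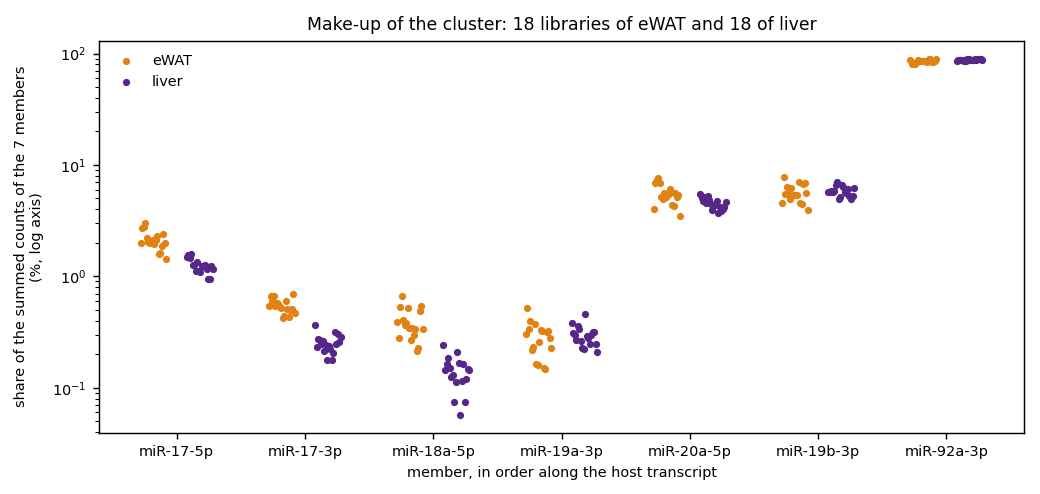
Share of each member in the summed counts of the 7 members, in percent on a log axis, for 18 eWAT libraries (orange) and 18 liver libraries (purple), with 1 point per library. MiR-92a-3p holds 81.1% to 90.2% in eWAT and 86.1% to 89.3% in liver, and the 6 other members lie between 0.0573% and 7.87%.

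In eWAT, HF mice had higher levels of the AAAGUGC pair, miR-17-5p and miR-20a-5p, than LF mice, while the dominant miR-92a-3p was level between the diets. Levels are counts per 1e+06 counts, scaled by TMM, a factor that corrects for library composition (CPM). MiR-17-5p had a lowest, median and highest value of 56.0, 66.5 and 86.7 CPM in HF eWAT, against 37.1, 49.6 and 60.0 CPM in LF eWAT. The groups overlapped through 1 LF library, LF 4, and all 6 HF libraries lay above the LF mean. Its log2 fold change was 0.51 (SE 0.14, 1.42-fold; adjusted p = 0.0101, edgeR quasi-likelihood test, Benjamini-Hochberg over 571 miRNAs). MiR-20a-5p had 122, 178 and 232 CPM in HF eWAT, against 90.0, 131 and 150.2 CPM in LF eWAT. HF 1 and HF 6 lay within the LF range and the other 4 HF libraries above it. The log2 fold change was 0.49 (SE 0.15, 1.40-fold; adjusted p = 0.0172).

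The other 5 members did not pass the test. MiR-92a-3p had 2134, 2291 and 2694 CPM in HF eWAT, against 1842, 2318 and 2837 CPM in LF eWAT, a log2 fold change of 0.01 (95% interval -0.20 to 0.21). The LF range enclosed the HF range. MiR-19b-3p had 138, 154 and 209 CPM in HF eWAT, against 101, 139.8 and 182 CPM in LF eWAT (0.17, interval -0.15 to 0.50). MiR-19a-3p, with the same seed, had 5.53, 9.88 and 13.9 CPM in HF eWAT, against 4.53, 5.93 and 8.54 CPM in LF eWAT (0.58, interval 0.00 to 1.15, adjusted p = 0.109). The interval of miR-19a-3p is the wider one, and that member had 1 count for every 21.04 of miR-19b-3p (median of 18 libraries). MiR-18a-5p had 7.41, 11.2 and 17.6 CPM in HF eWAT, against 6.13, 9.48 and 12.2 CPM in LF eWAT (0.41, adjusted p = 0.179). MiR-17-3p, the other arm of the mir-17 hairpin, had 13.8 to 18.9 CPM in HF eWAT (mean 16.8), against 12.1 to 15.5 CPM in LF eWAT (mean 13.8) (0.29, adjusted p = 0.0879), with all 6 HF libraries above the LF mean.

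So 2 of 7 members were called higher and none lower, beside 19.6% of all 571 miRNAs called higher, 15.2% called lower and 34.9% called in either direction: the members' share is near the background. Their median log2 fold change was 0.41, against 0.03 over all miRNAs. All 7 were above 0, as were 51.1% of all miRNAs, but miR-92a-3p was below 0 with RLE size factors (-0.09) and with DESeq2 (-0.09). MiR-92a-3p was also not above 0 with no filter on low counts and without LF 4, LF 5 and HFLF 4. The same held without LF 3, LF 4, LF 5, LF 6 or HF 1 in turn. The number of members called depended on the scaling, the filter, the diets in the fit and single libraries. Without HF 5 there were 4, with miR-17-3p (0.38, adjusted p = 0.0244) and miR-19a-3p (0.72, adjusted p = 0.0467) added, beside 207 of 585 miRNAs called. With total counts in place of TMM, which moved the median of all miRNAs to 0.32, all 7 were called higher (0.31 to 0.89), and the calls over all miRNAs split into 205 higher and 53 lower in place of 112 and 87. The call of miR-17-5p ended without a filter on low counts (adjusted p = 0.0567) and with only HF and LF in the fit (0.0513). Without LF 4, LF 5 and HFLF 4 its log2 fold change was 0.56 (adjusted p = 0.0241). The call of miR-20a-5p ended in the same 2 settings (0.0688 and 0.0636), with RLE size factors (0.0559), without LF 6 (0.0574) and without LF 4, LF 5 and HFLF 4 (0.0690).

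**Figure D2:**
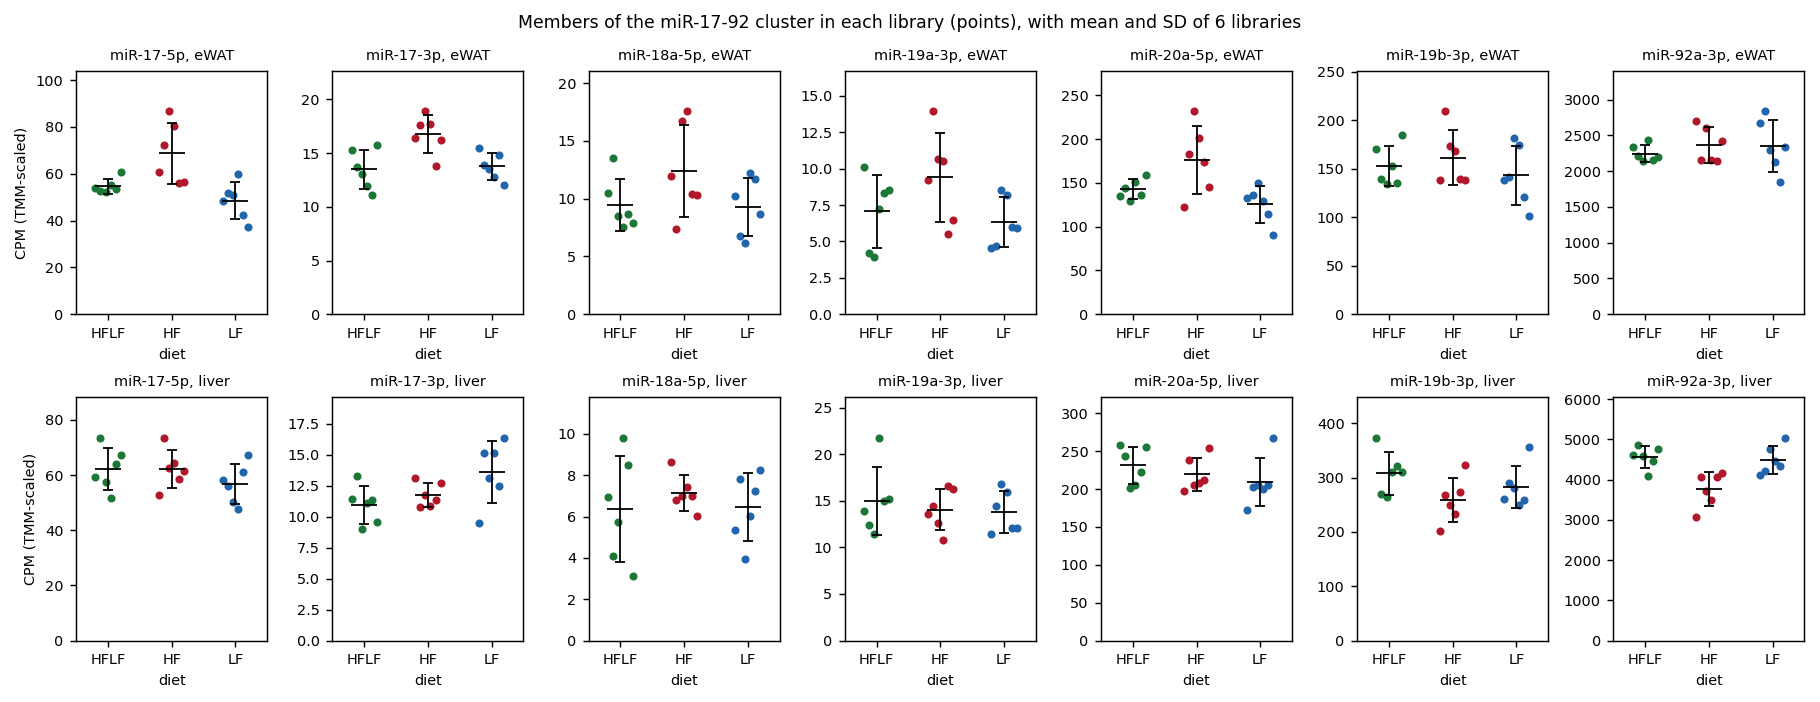
Level of each member in every library, in TMM-scaled CPM from 0, with eWAT in the top row and liver in the bottom row, and diets in the order HFLF, HF, LF. Points are libraries, and bars are the mean and SD of 6. In eWAT the HF points of miR-17-5p (56.0 to 86.7 CPM) and miR-20a-5p (122 to 232 CPM) reach above the LF points, while for miR-92a-3p the diets coincide.

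Cell type markers moved in the same contrast. Of 11 tested leukocyte miRNAs, 6 were called higher in HF eWAT and none lower, and the summed level of the list ranged from 2520 to 5032 CPM in HF, against 1939 to 2773 CPM in LF. Within the list miR-342-3p averaged 870 ± 676 CPM in HF, against 99.7 ± 10.5 CPM in LF (SD). MiR-150-5p (783 CPM in HF, against 1019 CPM in LF, log2 fold change -0.38) and miR-184-3p (-0.23) were lower in HF without being called. Of 8 adipocyte miRNAs 6 were called lower, and the sum of the list ranged from 47616 to 131365 CPM in HF, against 155609 to 369038 CPM in LF. Most of that sum was miR-143-3p, which is abundant in stroma as well as fat (mean 70506 CPM in HF, against 182276 CPM in LF). All 6 tested epithelial miRNAs were called lower (492 to 1337 CPM in HF, against 2085 to 9747 CPM in LF). Without LF 4, LF 5 and HFLF 4 the same counts were 6 of 11, 5 of 8 and 6 of 6. Other lists also held miRNAs called lower in HF eWAT. These were 2 of 4 hepatocyte miRNAs (291 to 2669 CPM summed in HF, against 579.7 to 10424 CPM in LF), 2 of 4 erythroid miRNAs (966 to 3064 CPM in HF, against 2151 to 3853 CPM in LF) and 3 of 5 male germ cell miRNAs (26.8 to 326 CPM in HF, against 28.5 to 2593 CPM in LF). Without the same 3 libraries they were 1, 0 and 0. Neither of 2 endothelial miRNAs was called. In HFLF against HF eWAT 4 of the 11 leukocyte miRNAs were called lower (2329 to 3797 CPM summed in HFLF, against 2520 to 5032 CPM in HF) and 5 without those 3 libraries. In the same contrast 5 of the 8 adipocyte miRNAs were called higher (115747 to 209806 CPM in HFLF, against 47616 to 131365 CPM in HF) and 3 without them. The erythroid miRNAs miR-144-5p and miR-451a (2888 to 4568 CPM summed over the list in HFLF, against 966 to 3064 CPM in HF) and 1 epithelial miRNA, miR-203-3p, were also called higher. Of the listed marker miRNAs only miR-449b, of male germ cells, was at 0 in all eWAT libraries. Their part in the members' values was not tested, and in whole tissue a change in cell numbers and one in RNA per cell cannot be told apart.

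In HFLF eWAT, after the return to the low-fat diet, the members lay below their HF levels without passing the test. MiR-17-5p had 52.2, 53.7 and 60.9 CPM in HFLF eWAT, with 5 of the 6 libraries under the lowest HF library. MiR-20a-5p had 129, 140.4 and 159.5 CPM in HFLF eWAT. Against HF, all 7 log2 fold changes were below 0, in every scaling tried (median -0.32, all miRNAs -0.09). The log2 fold change was -0.33 for miR-17-5p (adjusted p = 0.0943), -0.32 for miR-17-3p (0.0717) and -0.31 for miR-20a-5p (0.143). By edgeR 0 of 7 were called, 2 had an unadjusted p under 0.05, and DESeq2 called none, beside 25.9% of all 571 miRNAs called by edgeR. Of those 571, 220 had an unadjusted p under 0.05, and DESeq2 called 167 of 559. With total counts 3 were called lower, miR-17-5p (-0.54, adjusted p = 0.0294), miR-17-3p (-0.52, 0.0177) and miR-20a-5p (-0.52, 0.0391). That scaling moved the median of all miRNAs to -0.29, with 138 of 571 called lower and 25 higher. Without HF 5, miR-17-5p (-0.41, adjusted p = 0.0480) and miR-17-3p (-0.40, adjusted p = 0.0255) were called lower, and without HFLF 6 miR-17-3p was (-0.39, adjusted p = 0.0366). Among all miRNAs, 105 of 585 were called lower without HF 5 and 90 of 580 without HFLF 6.

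Against LF, the members' log2 fold changes in HFLF eWAT lay between -0.07 and 0.18 (median 0.10, all miRNAs 0.00). None was called by edgeR or DESeq2 and none had an unadjusted p under 0.05, beside 0% of all 571 miRNAs called (65 of them had an unadjusted p under 0.05, and DESeq2 called 9). MiR-17-5p had a 95% interval of -0.12 to 0.48 and miR-20a-5p one of -0.13 to 0.50. These 3 contrasts share libraries and are not independent.

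**Figure D3:**
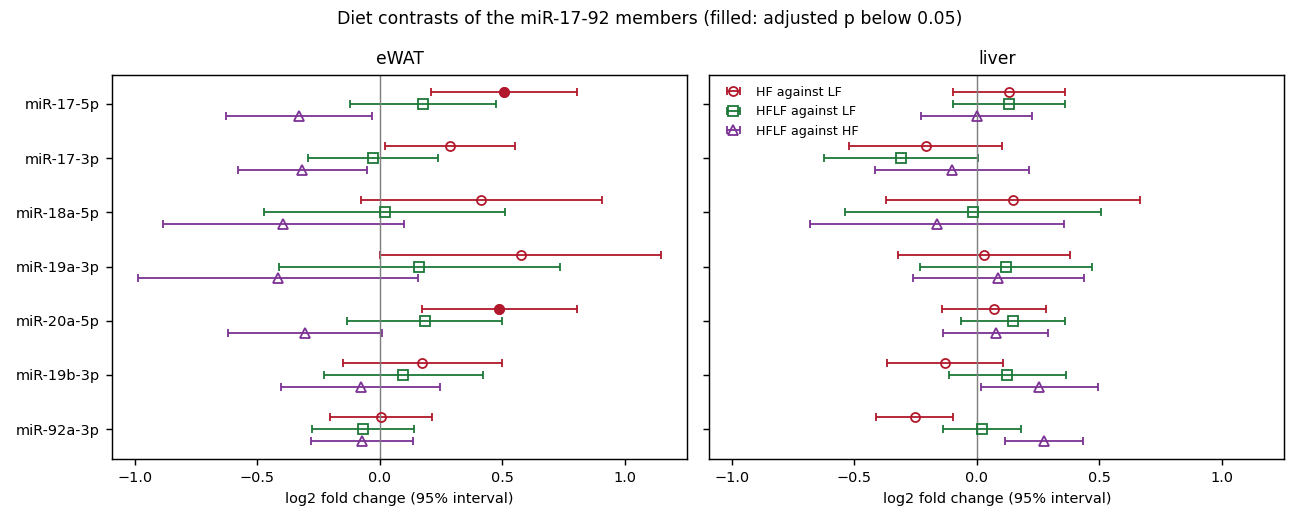
Log2 fold change of each member with its 95% interval in eWAT (left) and liver (right) for HF against LF (circles), HFLF against LF (squares) and HFLF against HF (triangles). Filled symbols mark an adjusted p below 0.05, which only miR-17-5p (0.51) and miR-20a-5p (0.49) reach, in HF against LF eWAT.

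In liver no member was called, and the member nearest to a call was miR-92a-3p, lower in HF mice. MiR-92a-3p had 3076, 3896 and 4166 CPM in HF liver, against 4126, 4398 and 5045 CPM in LF liver. Only HF 6 exceeded the lowest LF library. The log2 fold change was -0.25 (SE 0.08; adjusted p = 0.0501, edgeR), just above the threshold, with all 6 HF libraries below the LF mean. DESeq2 called it (-0.25, adjusted p = 0.0385), and it was also called without LF 1, LF 2, LF 5, HF 5 or HF 6 in turn (0.0324 to 0.0490). With total counts it was -0.07 (adjusted p = 0.605).

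The 6 other members in liver differed less between HF and LF. Their log2 fold changes ran from -0.21 for miR-17-3p to 0.15 for miR-18a-5p. MiR-17-5p, at 52.9 to 73.6 CPM in HF liver and 47.7 to 67.3 CPM in LF liver, had 0.13 (interval -0.10 to 0.36), and miR-20a-5p had 0.07 (interval -0.14 to 0.28). In all, 0 of 7 were called by edgeR, 1 had an unadjusted p under 0.05 and DESeq2 called 1, beside 5.69% of all 422 miRNAs called by edgeR. Of those 422, 93 had an unadjusted p under 0.05, and DESeq2 called 47 of 421.

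MiR-92a-3p also stood out in HFLF liver, set against HF liver, without passing the test. It had 4095, 4592 and 4853 CPM in HFLF liver, with all 6 libraries above the HF mean and 1 of them, HFLF 4, within the HF range. The log2 fold change was 0.28 (SE 0.08; adjusted p = 0.109, edgeR; 0.0301 with DESeq2; 0.0452 without HF 6). MiR-19b-3p, its neighbour in the transcript, had 263, 309.7 and 374 CPM in HFLF liver, against 202, 259 and 323 CPM in HF liver (0.25, adjusted p = 0.282). By edgeR 0 members were called, 2 had an unadjusted p under 0.05 and DESeq2 called 1, beside 0% of 422 miRNAs called by edgeR (65 had an unadjusted p under 0.05 and DESeq2 called 15). Against LF, HFLF liver gave log2 fold changes from -0.31 for miR-17-3p to 0.15 for miR-20a-5p. Neither tool called a member, none had an unadjusted p under 0.05, and 0% of 422 miRNAs were called (51 had an unadjusted p under 0.05 and DESeq2 called 4).

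Whether a diet effect differs between the tissues was tested in 1 edgeR fit of all 36 libraries. For HF against LF, the eWAT effect minus the liver effect was above 0 for all 7 members, from 0.17 for miR-92a-3p to 0.44 for miR-19a-3p. No member was called and 1, miR-17-3p (0.42, adjusted p = 0.103), had an unadjusted p under 0.05, beside 26.7% of 595 miRNAs called. With total counts miR-17-3p (0.59) and miR-92a-3p (0.38) were called, each with adjusted p = 0.0372, beside 148 of 595 miRNAs called. Of the members, 0 were called for HFLF against LF (0% of 595 miRNAs) or for HFLF against HF (9.58% of 595 miRNAs), and none had an unadjusted p under 0.05 in either. Without LF 4, LF 5 and HFLF 4 of eWAT no member was called in any of the 3. With total counts miR-92a-3p was called in HFLF against HF (-0.46, adjusted p = 0.0345), beside 39 of 595 miRNAs called. A response in eWAT and none in liver is thus not shown for any member under TMM scaling.

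Levels between tissues depended on the scaling. In LF mice, with TMM across both tissues, all 7 members were lower in eWAT than in liver and all were called, beside 65.2% of 595 miRNAs. MiR-92a-3p averaged 1527 ± 251 CPM in eWAT and 6966 ± 491 CPM in liver (SD, n = 6 each; log2 fold change -2.19, adjusted p = 1.91e-17, edgeR), and miR-18a-5p 5.99 ± 1.52 CPM in eWAT and 10.03 ± 2.63 CPM in liver (-0.74, adjusted p = 0.00998). These CPM are scaled over both tissues and so differ from those given within a tissue. With total counts, under which liver libraries give 37.9% to 51.4% of their counts to miR-122-5p, the log2 fold change of miR-92a-3p was -0.97, those of miR-17-5p (-0.26) and miR-17-3p (-0.00) were no longer called, and miR-18a-5p turned to 0.50 (adjusted p = 0.0839). With RLE size factors 6 of 7 were called and miR-18a-5p was not (-0.53, adjusted p = 0.0566). Without LF 4, LF 5 and HFLF 4 of eWAT all 7 were called lower, with miR-18a-5p at -0.94 (adjusted p = 0.00514). MiR-19a-3p, miR-20a-5p, miR-19b-3p and miR-92a-3p were called lower in eWAT under each of the 3 scalings. Of all 595 miRNAs, 167 were called lower in eWAT with TMM, 149 with RLE size factors and 52 with total counts. Without LF 4, LF 5 and HFLF 4 of eWAT, 159 of 611 were. The cluster took 0.198% to 0.390% of all counts in eWAT and 0.402% to 0.588% in liver, without overlap.

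Ratios within a library do not depend on scaling, and in eWAT those of the miR-17 family to its relatives at another locus differed by diet. The miR-106b-25 cluster on chromosome 5, which sits in an intron of Mcm7, makes miR-106b-5p and miR-93-5p with the seed of miR-17-5p and miR-20a-5p, and miR-25-3p with the seed of miR-92a-3p. Their sequences from RefSeq are given with the seed in capitals to show the bases by which reads of these relatives are told apart.
miR-106b-5p: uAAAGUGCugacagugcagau
miR-93-5p: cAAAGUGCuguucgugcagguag
miR-25-3p: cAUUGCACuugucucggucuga
From miR-17-5p to miR-106b-5p the substitutions over the shared length are C1U, U10G and G20A, and from miR-20a-5p to miR-93-5p they are U1C, U10G, A11U and A13C. Of 36 tests of ratios (6 ratios, 3 contrasts, 2 tissues), 4 passed.

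In eWAT the miR-17-5p to miR-106b-5p ratio was higher in HF mice than in either other diet. On the log2 scale it had a lowest, median and highest value of -2.37, -1.80 and -1.43 in HF eWAT, against -2.76, -2.66 and -2.39 in LF eWAT, without overlap. Per read of miR-106b-5p there were 0.193 to 0.371 reads of miR-17-5p in HF, against 0.148 to 0.191 in LF. The difference was 0.73 (exact permutation test, 2-sided p = 0.00216, the smallest that 924 splits allow; adjusted p = 0.0260 over 18 tests). HFLF eWAT had -2.68, -2.53 and -2.22, 0.64 below HF (exact permutation p = 0.00433, adjusted p = 0.0260) and 0.10 above LF (adjusted p = 0.319).

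The miR-20a-5p to miR-93-5p ratio showed the same order. It had -3.53, -3.03 and -2.27 in HF eWAT, against -4.20, -3.69 and -3.45 in LF eWAT, where only HF 6 fell inside the LF range. The difference was 0.73 (exact permutation p = 0.00433, adjusted p = 0.0260). HFLF eWAT had -3.66, -3.53 and -2.99, with differences of -0.46 from HF (adjusted p = 0.156) and 0.27 from LF (adjusted p = 0.177). The third pair, miR-92a-3p to miR-25-3p, had medians of 0.66 in HFLF eWAT, 0.98 in HF eWAT and 0.85 in LF eWAT and passed in no contrast.

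Neither denominator passed the test alone in HF against LF eWAT. In HF eWAT miR-106b-5p averaged 249 ± 35.9 CPM, against 291 ± 32.2 CPM in LF eWAT (SD, n = 6 each; log2 fold change -0.23, adjusted p = 0.119, edgeR), and miR-93-5p 1396 ± 210 CPM, against 1650.0 ± 127 CPM (-0.24, adjusted p = 0.0787). In HFLF against HF eWAT miR-106b-5p was itself called higher (310 ± 24.4 CPM in HFLF; 0.32, adjusted p = 0.0423). In liver the same ratios lay close together: the miR-17-5p to miR-106b-5p medians were -1.19 in HFLF, -1.13 in HF and -1.14 in LF, and the miR-20a-5p to miR-93-5p medians were -1.71 in HFLF, -1.89 in HF and -1.90 in LF. The difference between the tissues in these ratios was not tested.

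Within the cluster, the miR-92a-3p to miR-17-5p ratio was lower in HF liver than in LF liver. It had log2 values of 5.76, 5.88 and 6.11 in HF liver, against 6.14, 6.23 and 6.56 in LF liver, without overlap, or 54.2 to 69.1 reads of miR-92a-3p per read of miR-17-5p in HF and 70.7 to 94.5 in LF. The difference was -0.39 (exact permutation p = 0.00216, adjusted p = 0.0390). HFLF liver had 6.05, 6.21 and 6.31, 0.28 above HF (adjusted p = 0.0974). In eWAT the ratio was also lower in HF, by 0.49 on the log2 scale (4.74, 5.08 and 5.47 in HF, against 5.15, 5.64 and 5.98 in LF), with an adjusted p of 0.117 that became 0.0468 without LF 4 and 0.0487 without LF 4, LF 5 and HFLF 4. HFLF against LF eWAT also passed without LF 4 (-0.34, adjusted p = 0.0390) and without the 3 (-0.42, 0.0487). In HF against LF liver 2 hepatocyte miRNAs of 5 were called higher and 1 lower (341919 to 481136 CPM summed in HF, against 454492 to 664441 CPM in LF). The 1 called lower was miR-122-5p, which made up most of that sum. It averaged 396410 CPM in HF liver, against 510749 CPM in LF liver (log2 fold change -0.37, adjusted p = 0.0350, edgeR). Of 11 leukocyte miRNAs 1 was called lower (605 to 819 CPM in HF, against 624 to 899 CPM in LF). Their part in the ratio was not tested.

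The ratio of the mir-17 arms passed in no diet contrast. There were 2.86 to 4.80 reads of miR-17-5p per read of miR-17-3p in eWAT and 3.14 to 6.97 in liver. The contrast nearest to a call was HFLF against LF liver, with a median of 5.55 in HFLF and 3.95 in LF (log2 difference 0.43, exact permutation p = 0.0281, adjusted p = 0.169). MiR-19b-3p had 14.9 to 33.7 reads per read of miR-19a-3p in eWAT and 14.2 to 29.5 in liver, also with no contrast passing.

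With a library left out, 1 to 6 of the 36 ratio tests passed. Exact permutation p-values move in coarse steps with so few libraries, so a call can end while the groups stay apart. The call of miR-92a-3p to miR-17-5p in HF against LF liver ended without any 1 of the 6 LF libraries or HF 4 (-0.43 to -0.34, adjusted p = 0.0584 to 0.0974, with HF and LF still without overlap). That of miR-17-5p to miR-106b-5p in eWAT ended without LF 5 in HF against LF (0.70, adjusted p = 0.0584), and in HFLF against HF without any 1 of HFLF 1 to HFLF 5 (-0.64 to -0.60, adjusted p = 0.0649). That of miR-20a-5p to miR-93-5p ended without LF 1, LF 2, LF 5 or LF 6 (0.63 to 0.74, adjusted p = 0.0649 to 0.0779). When LF 4, LF 5 and HFLF 4 of eWAT were left out, the miR-17-5p to miR-106b-5p difference was 0.74 between HF and LF and -0.60 between HFLF and HF (adjusted p = 0.0487 for each), while that of miR-20a-5p to miR-93-5p was 0.77 with an adjusted p of 0.0857.

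**Figure D4:**
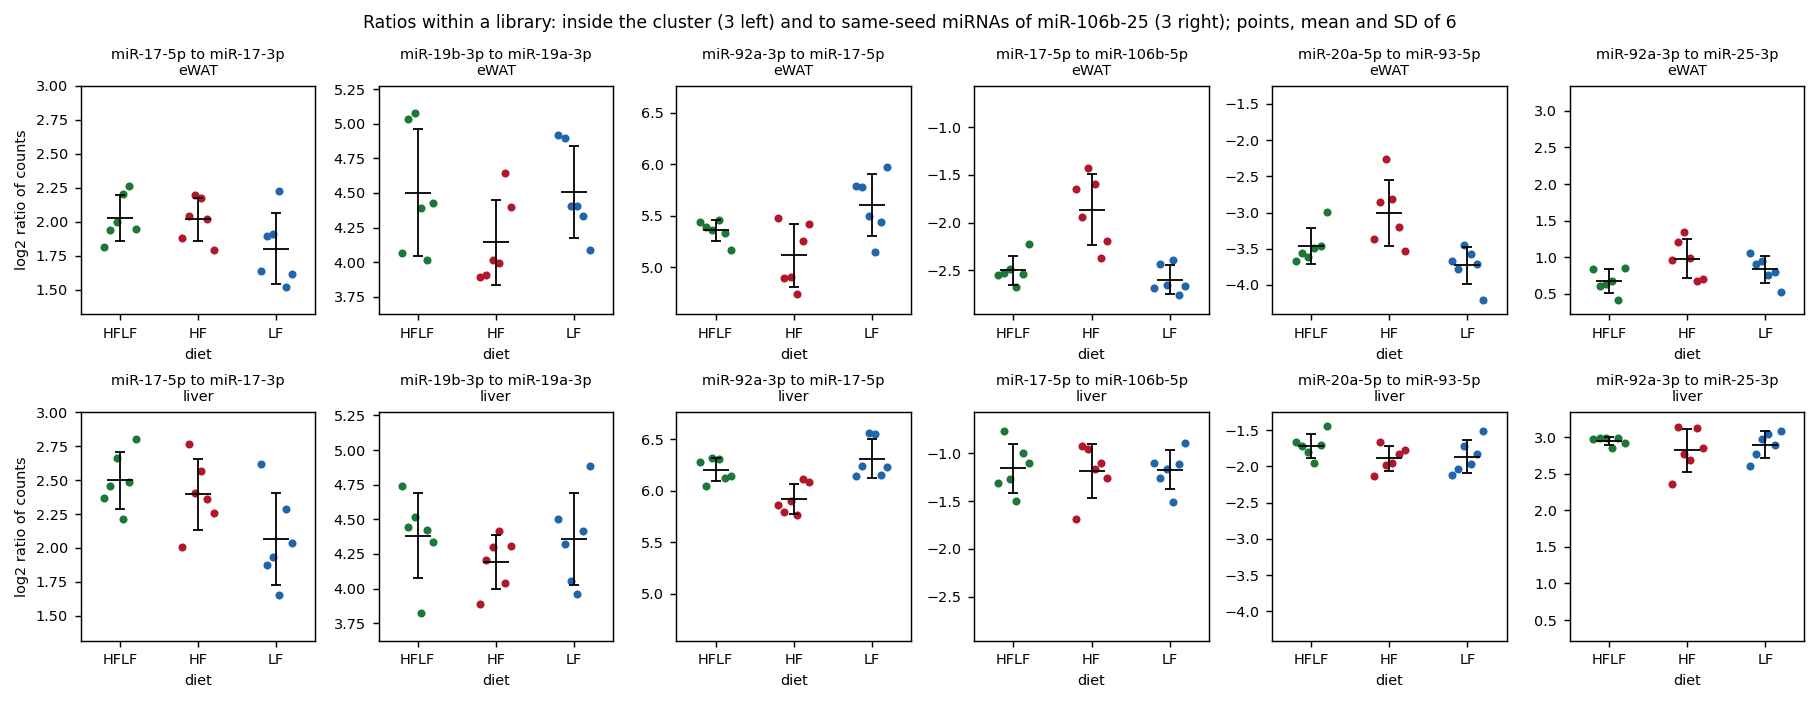
Log2 ratio of the counts of 2 miRNAs in each library by diet (HFLF, HF, LF), in eWAT (top) and liver (bottom): 3 ratios within the cluster (left) and 3 to miRNAs of the same seed from miR-106b-25 (right). Points are libraries, bars are mean and SD of 6, and each pair of panels shares its range. The HF points of miR-17-5p to miR-106b-5p in eWAT (-2.37 to -1.43) lie above all LF points (-2.76 to -2.39).

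Members of 1 transcript did not all vary together. Over the 18 eWAT libraries the 21 pairwise correlations of log2 CPM had a median of 0.47 and ran from -0.09 to 0.89, the highest between miR-17-5p and miR-20a-5p (0.80 with each diet's mean removed). MiR-92a-3p had correlations of -0.09 to 0.19 with the other 6 in eWAT. Over the 18 liver libraries the median was 0.12 (-0.47 to 0.70), and miR-92a-3p was closest to its neighbour miR-19b-3p (0.70) and to miR-20a-5p (0.47). With diet means removed the medians were 0.25 in eWAT and 0.24 in liver, and in liver miR-92a-3p was then closest to miR-20a-5p (0.73), ahead of miR-19b-3p (0.63). These points share a library's depth and scaling, and the low counts of miR-18a-5p and miR-19a-3p add counting error.

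Outside the cluster and its relatives, the miRNAs most like the mean of the members' centred log2 CPM in eWAT were miR-511-3p (r = 0.88), miR-674-5p (0.88), miR-223-3p (0.86), miR-221-3p (0.86) and miR-212-5p (0.85), over 18 libraries and among 552 miRNAs. With diet means removed these were 0.79, 0.76, 0.73, 0.70 and 0.69. MiR-511-3p, made from an intron of the macrophage gene Mrc1, and miR-223-3p, a granulocyte and macrophage miRNA, are on the leukocyte list. In liver they were miR-101a-3p (0.78), miR-30a-5p (0.72), miR-30e-5p (0.67), miR-101c (0.66) and miR-30d-5p (0.64), among 406 miRNAs. No miRNA is on both lists.

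In sperm the table lists the miR-19 pair, which ranked 6th (miR-19b-3p) and 10th (miR-19a-3p) of the 79 listed miRNAs by mean. Both were lowest in HF mice without passing the test. Sperm values are deposited for these 79 only, beside a column of the authors' cluster numbers. How the 79 were chosen is not given in the sources used here, so ranks and shares hold among them. Members not listed were not tested, and their level in sperm is not known. The values are deposited on a log scale, read here as log2. MiR-19b-3p had 12.1, 13.4 and 13.5 in HF sperm, against 13.4, 13.8 and 14.4 in LF sperm, a difference of -0.72 (SE 0.29; adjusted p = 0.0940, limma, Benjamini-Hochberg over 79 miRNAs). MiR-19a-3p had 9.89, 11.1 and 11.3 in HF sperm, against 11.0, 11.6 and 12.1 in LF sperm (-0.70, SE 0.33; adjusted p = 0.157). In both, the highest HF samples overlapped the lowest LF samples.

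HFLF sperm had 12.8, 14.2 and 14.6 for miR-19b-3p and 10.1, 11.9 and 12.2 for miR-19a-3p, with HFLF 4 the lowest in both. LF 4 and HF 4 were likewise the lowest of their diets in both. The differences from HF were 0.88 (SE 0.29, adjusted p = 0.0905) for miR-19b-3p and 0.76 (SE 0.33, adjusted p = 0.0983) for miR-19a-3p. Those from LF were 0.16 (adjusted p = 0.855) and 0.06 (adjusted p = 1). By limma 0 of 2 members were called in HF against LF (0% of 79 miRNAs), in HFLF against HF (1.27%) or in HFLF against LF (0%), while both had an unadjusted p under 0.05 in the first 2 contrasts. Without HFLF 4 both were called in HFLF against HF (1.11, adjusted p = 0.0129, and 1.06, adjusted p = 0.0174). The relation of sperm values to those of the other tissues was not analysed here.

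**Figure D5:**
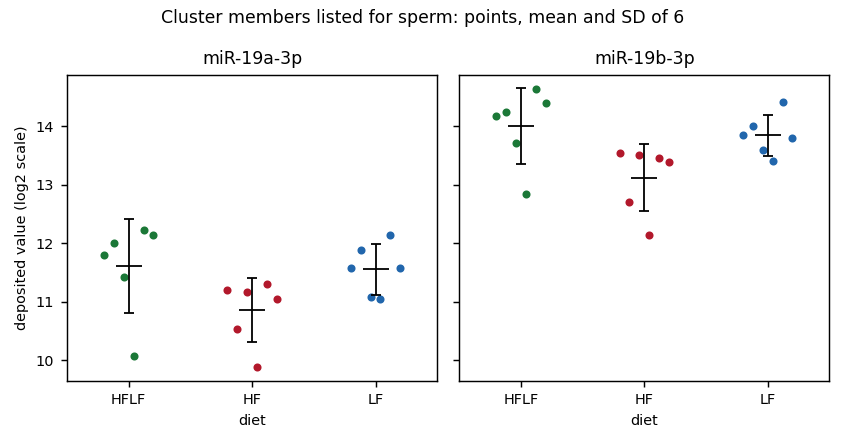
Deposited values, on a log scale read as log2, of miR-19a-3p and miR-19b-3p in sperm by diet (HFLF, HF, LF), with 1 point per sample and the mean and SD of 6. HF samples reach up to 11.3 and 13.5, and HFLF 4 lies apart from the other HFLF samples at 10.1 and 12.8.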

How the data were processed

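Per the labels, total RNA was made into libraries with the NEXTFLEX small RNA kit, and per the submitters' processing notes cutadapt, Bowtie and GRCm38.p6 were used. How reads were assigned to near-identical miRNAs is not given in the sources used here. For liver and eWAT the deposited values are unnormalized counts, 1 column per library. The deposited sperm table holds log2 values, judged from their range (1.72 to 18.6), and 18 of its columns, from another generation, play no part here. The column codes C, H and R were taken to mean LF, HF and HFLF; C and R are not defined in the sources used here.

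Counts were tested per tissue with edgeR 4.0.16 in R 4.3.3 (quasi-likelihood, TMM, filterByExpr by diet, 3 diets in 1 fit, diet as the only term), and sperm values with limma 3.58.1, without a replicate block. A call is an adjusted p (Benjamini-Hochberg) under 0.05, taken over 571 miRNAs in eWAT and 422 in liver. All 7 members passed the filter in both tissues. Ratios add 0.5 to each count. The edgeR and limma steps were tested on simulated data, and the permutation step was not. Alternatives were DESeq2 1.42.0, RLE size factors, total counts, no filter, 2 diets per fit, a replicate block, and leaving out libraries. Intervals and SE cover the spread between libraries. Members, marker lists and tests were chosen with earlier results of these data known. The named miRNAs are the members, the other arms and relatives that were called or used in a ratio, and the 5 most like the members in each tissue. Some marker miRNAs are named as well.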

Additional observations from a re-analysis of the deposited data

How the results depend on the processing

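The count of called miRNAs moved by over 1.5 times in these settings. In eWAT, HFLF against LF went to 9 with DESeq2, 7 without LF 4, LF 5 and HFLF 4, and 0 to 12 with a library left out (none in the edgeR result), and HFLF against HF to 89 with no filter and 91 to 160 with a library left out (148). In liver, HF against LF gave 47 with DESeq2, 61 with total counts and 16 to 49 with a library left out (24). Liver HFLF against LF gave 4 with DESeq2, 15 with no filter, 2 with only these diets and 0 to 1 with a library left out (none). Liver HFLF against HF gave 15 with DESeq2, 1 with RLE, 9 with no filter and 0 to 6 with a library left out (none). Of the 36 ratio tests 4 passed, 1 to 6 with a library left out.

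In eWAT HF against LF, RLE split the calls into 100 higher and 111 lower and DESeq2 into 108 and 120, against 112 and 87. MiR-18a-5p in eWAT against liver reversed with total counts (0.50). Values not called changed sign 94 times while staying not called, between -0.11 and 0.16.

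In eWAT and liver, replicate numbers did not pair the libraries as a whole. The deviations of same-numbered libraries correlated over 0.1 in 1 or 2 of 6 pairs per contrast. Single eWAT pairs went as far as 0.71 (HFLF 4 and LF 4) and -0.78 (HF 1 and LF 1). Sperm was not checked in this way, and there the sample numbered 4 was the lowest of each diet for both members. The joint fit was repeated with a block on the diet and number label, which pairs eWAT and liver of 1 label. The deviations of such pairs had a median correlation of 0.002 (-0.09 to 0.11, 18 pairs). With this block the tissue difference gave 103 calls for HF against LF (159 without) and 34 for HFLF against HF (57 without). Without LF 4, LF 5 and HFLF 4 of eWAT, a setting added after seeing the data, it gave 3 calls for HFLF against LF (none with all libraries). Under a block on replicate number within a tissue, miR-92a-3p was called in HF against LF liver (adjusted p = 0.0367). So was 1 sperm member, miR-19b-3p, in HFLF against HF (0.0215, with 0 to 2 sperm members when a sample was left out). Members at under 20 CPM rest on 23 to 221 counts per library, which limits their precision.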

Other observations

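The other arms of the cluster's hairpins were rare. Of 5, only miR-18a-3p and miR-92a-1-5p passed the filter on low counts, and miR-18a-3p was called higher in HF eWAT (3.41 ± 0.929 CPM, against 1.56 ± 0.915 CPM in LF eWAT, SD, n = 6 each; log2 fold change 1.13, adjusted p = 0.0480, edgeR; 0.0579 without LF 4, LF 5 and HFLF 4). MiR-18a-5p, from the same hairpin, did not pass in that contrast. Of 18 relatives of the cluster at other loci, 10 passed the filter in eWAT. In HF against LF eWAT 0 were called higher and 1 lower, miR-92b-3p (9.50 ± 3.32 CPM in HF, against 90.7 ± 143 CPM in LF; log2 fold change -3.25, adjusted p = 0.0289), which had 3919 counts in LF 4, 1299 in LF 5, 801 in HFLF 4 and 34 to 125 in the other 15 eWAT libraries. Without these 3 its log2 fold change was 0.26 (adjusted p = 0.488), and in HFLF against HF eWAT it was -1.04 (adjusted p = 0.0105), against 0.80 (adjusted p = 0.606) with all libraries. In HFLF against HF eWAT miR-106b-5p was called higher (310 ± 24.4 CPM in HFLF, against 249 ± 35.9 CPM in HF; 0.32, adjusted p = 0.0423; 0.130 without those 3 libraries) and miR-25-5p lower (4.59 ± 1.11 CPM in HFLF, against 9.32 ± 1.41 CPM in HF; -1.02, adjusted p = 0.00295; 0.00967 without them). In liver 7 relatives were tested and none was called in any contrast by edgeR. In sperm miR-106a-5p, the X-linked relative of miR-17-5p, stood at the lowest value of the table (1.72) in all HF and LF samples and above it in 3 of 6 HFLF samples.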
